A study of Mus musculus with 6 samples.

Results

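The ISG15 conjugation machinery was followed here as 5 genes of the 43432 gene IDs counted: Isg15, Uba7, Ube2l6, Herc6 and Usp18. They were taken by name as the modifier, its activating, conjugating and ligating enzymes and its protease. No cutoff on measured values was used, but they were picked with earlier results of these data known. The study sequenced RNA from medullary thymic epithelial cells (mTEC), the stromal cells of the thymus that present antigens of other tissues while T cells mature. The libraries came from C57BL/6 mice 4 weeks old, 3 labelled MUT (genotype CopaE241K/+, 1 mutant and 1 wild-type allele of Copa) and 3 labelled WT (Copa+/+). Copa encodes a subunit of the COPI coat of Golgi vesicles, and the labels give no treatment for either genotype. The title of the series is about STING activation and thymic type I interferon, so the comparison asks how far genes of this interferon-induced pathway differ between the genotypes. The labels do not say whether a library came from 1 animal or a pool, so each p-value measures the spread between these libraries only.

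ISG15 is a ubiquitin-like protein that is joined to lysines of other proteins, a reaction called ISGylation. The E1 enzyme UBA7 activates it with ATP, the E2 enzyme UBE2L6 carries it, and an E3 ligase of the HERC family passes it to the target; HERC6 has this role in mouse, and HERC5 in human. The protease USP18 takes ISG15 off again and, apart from that activity, binds the interferon receptor and restrains its signal. Type I interferon induces all these genes in many cell types, through the transcription factor ISGF3 and promoter elements that repeat a GAAA core.

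The promoter sequences are shown because that element is the usual link between these genes and interferon. RefSeq entries on build GRCm38.p6 were found for 4 of the 5 genes, all but Usp18. The 250 bases before each RefSeq transcription start were searched on both strands for GAAA repeated after any 2 bases, the core of the interferon-stimulated response element (ISRE), and for the shorter AANNGAAA, which lies within every ISRE core match. Matches to either are in capitals, and each sequence is written 5′ to 3′ on the strand of its gene. For Isg15 (chr4:156200819-156200968, minus strand), Ube2l6 (chr2:84798678-84798827, plus strand) and Herc6 (chr6:57580842-57580991, plus strand) the 150 bases next to the start are given. For Uba7 (chr9:107975529-107975558, plus strand) only the 30 bases round its match are given.
Isg15: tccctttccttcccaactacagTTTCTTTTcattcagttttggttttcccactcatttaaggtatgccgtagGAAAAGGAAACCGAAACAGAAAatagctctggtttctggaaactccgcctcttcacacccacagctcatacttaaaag
Uba7: actcagtctagTTTCACTTttggtttcctg
Ube2l6: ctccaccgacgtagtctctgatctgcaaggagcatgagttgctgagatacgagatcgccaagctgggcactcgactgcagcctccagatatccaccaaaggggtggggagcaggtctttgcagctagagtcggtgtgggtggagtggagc
Herc6: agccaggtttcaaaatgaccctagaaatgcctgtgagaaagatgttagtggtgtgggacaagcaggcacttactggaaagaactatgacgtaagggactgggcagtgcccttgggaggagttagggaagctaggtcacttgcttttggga

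The Isg15 window held 3 overlapping ISRE core matches, between 78 and 57 bases before the start, and 4 to AANNGAAA. The Uba7 window held 1 match to AANNGAAA, on the opposite strand and 27 to 20 bases before the RefSeq start, inside the longest extent that GENCODE M21 gives the gene. The Ube2l6 and Herc6 windows held no match to either, which says only that these letters are not in those windows. Of 32851 RefSeq promoter windows of the same length, 2.98% held the ISRE core and 21.3% held AANNGAAA.

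All 5 genes were measured in every library, with 312 to 6023 raw counts each. The libraries held 21218363 to 23366238 counts in MUT and 19934513 to 22880945 in WT. MUT library 3 and WT library 3 had the most genes detected (24774 and 21755), and each pair of libraries differed by more than sampling noise. Copa itself did not check the genotype, since the allele changes a single amino acid. All 8 mTEC markers, among them Aire and Epcam, were counted in every library, and together they made up 9488 to 11161 CPM in MUT and 10025 to 12606 CPM in WT. H2-Aa gave most of each sum, 5935 to 7940 CPM in MUT and 5557 to 9619 CPM in WT. Of the 8 markers, 3 had a log2 fold change (MUT minus WT) above 0, and the median was -0.14. Epcam measured 418, 441 and 593 CPM in MUT and 629, 641 and 751 CPM in WT, lower in MUT without overlap. Aire overlapped, at 929 to 1563 CPM in MUT and 954 to 1379 CPM in WT. In these bulk libraries a change in the share of a cell type and a change in RNA per cell cannot be told apart.

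CPM are counts relative to the total of a library over the tested genes, on the usual scale of that unit and with the TMM factors of edgeR. The test was edgeR's quasi-likelihood test, MUT minus WT, across 17172 genes. It called 0 genes at an adjusted p under 0.05, which is 0% of the genes tested, so no member passed it. It had 597 genes (3.48%) at an unadjusted p under 0.05, and DESeq2 called 116 genes at an adjusted p under 0.05. The adjusted p was 0.999875 for each of the 5 genes in edgeR's test.

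Within that limit, 4 of the 5 genes were fitted above 0 and Ube2l6 below it; the median of the 5 log2 fold changes was 0.85. Over all genes tested 49.4% had a value above 0, and the median was -0.01. The genotypes did not overlap for 3 members, Uba7, Herc6 and Usp18, all higher in MUT. Over all genes tested 5.39% did not overlap in that direction, and 3.96% in the other. The members were picked with earlier results of these data known, so these counts are a description.

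Isg15, the modifier (ENSMUSG00000035692, chromosome 4, 156199424 to 156200818, minus strand, 1 annotated transcript), measured 171, 165 and 91.0 CPM in MUT libraries 1, 2 and 3. It measured 123, 72.9 and 41.4 CPM in WT libraries 1, 2 and 3. MUT libraries 1 and 2 were the highest of the 6, and WT library 1 lay above MUT library 3, so the genotypes overlapped. The group means were 142 ± 44.6 CPM in MUT and 79.1 ± 41.2 CPM in WT (mean ± SD, n = 3 each, as below). The log2 fold change was 0.85 (SE 0.48), with a 95% interval from -0.19 to 1.89. It was 1.32 without WT library 1 and 0.54 without WT library 3. A transcript annotated as AC151275.1, whose gene is not among the gene IDs counted, matches the Isg15 transcript at 95.2% over 482 bases. The authors' counting may have dropped some Isg15 reads that fit both places.

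Uba7, the E1 enzyme that starts the cascade (ENSMUSG00000032596, chromosome 9, 107975505 to 107984060, plus strand), measured 150.1, 72.4 and 117 CPM in MUT libraries 1, 2 and 3. The WT libraries measured 64.5, 71.3 and 65.0 CPM. The genotypes did not overlap, but MUT library 2 (72.4 CPM) and WT library 2 (71.3 CPM) were close. The WT values were close together: their SD of log2 CPM, 0.08, was among the lowest 0.887% of the 12737 tested genes with a mean of at least 5 CPM. The means were 113 ± 39.0 CPM in MUT and 66.9 ± 3.78 CPM in WT, with a log2 fold change of 0.76 (SE 0.43, 95% interval -0.17 to 1.69). Without MUT library 1 it was 0.50. A read-through gene on the same strand, Gm20661, shares 233 exon bases with Uba7. It had 299, 56 and 52 counts in MUT and 17, 7 and 29 counts in WT, small beside the 1123 to 3241 counts of Uba7.

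Ube2l6, the E2 enzyme (ENSMUSG00000027078, chromosome 2, 84798828 to 84810335, plus strand), was the member fitted below 0. It measured 100.1, 51.1 and 76.4 CPM in MUT libraries 1, 2 and 3. It measured 17.9, 284 and 112 CPM in WT libraries 1, 2 and 3. The WT libraries held both the lowest and the highest value of the 6, and their highest was 15.8 times their lowest, against 1.96 times within MUT. The WT SD of log2 CPM was 2.02, above that of 83.3% of the genes with a mean of at least 5 CPM. The log2 fold change was -0.86 (SE 0.72, 95% interval -2.44 to 0.72), and it was 0.21 without WT library 2, -1.38 without WT library 1 and -0.27 with limma-voom. With the library number as a block in the fit it was -0.27 (SE 0.84) in edgeR and -0.28 (SE 0.80) in DESeq2. Another gene ID, Gm17167, matches an Ube2l6 transcript at 95.1% over 508 bases and had 0 counts in every library. D10Wsu102e matches at 90.6% over 498 bases and had 380, 888 and 1853 counts in MUT and 412, 691 and 873 counts in WT, so reads of that stretch may be shared.

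Herc6, the E3 ligase (ENSMUSG00000029798, chromosome 6, 57581000 to 57664632, plus strand), had the largest fold change of the 5. It measured 131, 159.5 and 57.8 CPM in MUT libraries 1, 2 and 3. It measured 18.4, 38.4 and 24.7 CPM in WT libraries 1, 2 and 3. Every MUT library was above every WT library, with MUT library 3 the lowest of its genotype. The means were 116 ± 52.4 CPM in MUT and 27.2 ± 10.2 CPM in WT, a log2 fold change of 2.09 (SE 0.54, 95% interval 0.92 to 3.27) or 4.27-fold. Its p was the 16th smallest of the 17172 genes tested, and with any 1 library left out the log2 fold change lay between 1.79 and 2.42. A transcript annotated within the same locus, Gm45193, shares 1269 exon bases with Herc6 on the same strand and is not among the gene IDs counted.

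Usp18, the protease (ENSMUSG00000030107, chromosome 6, 121245906 to 121270917, plus strand), measured 251, 191 and 157 CPM in MUT libraries 1, 2 and 3. The WT libraries measured 71.1, 105 and 75.2 CPM. Its lowest MUT library exceeded its highest WT library, and the values within each genotype were close: the highest was 1.602 times the lowest in MUT and 1.47 times in WT. The means were 199.8 ± 47.9 CPM in MUT and 83.6 ± 18.3 CPM in WT, a log2 fold change of 1.256 (SE 0.37, 95% interval 0.44 to 2.07) or 2.39-fold. Its p ranked 53rd of the genes tested. With any 1 library left out the log2 fold change lay between 1.06 and 1.44. Usp18 shares 124 exon bases with an antisense RNA, Gm44148, whose reads cannot be told apart from its own if the counting ignored strand.

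**Figure D1:**
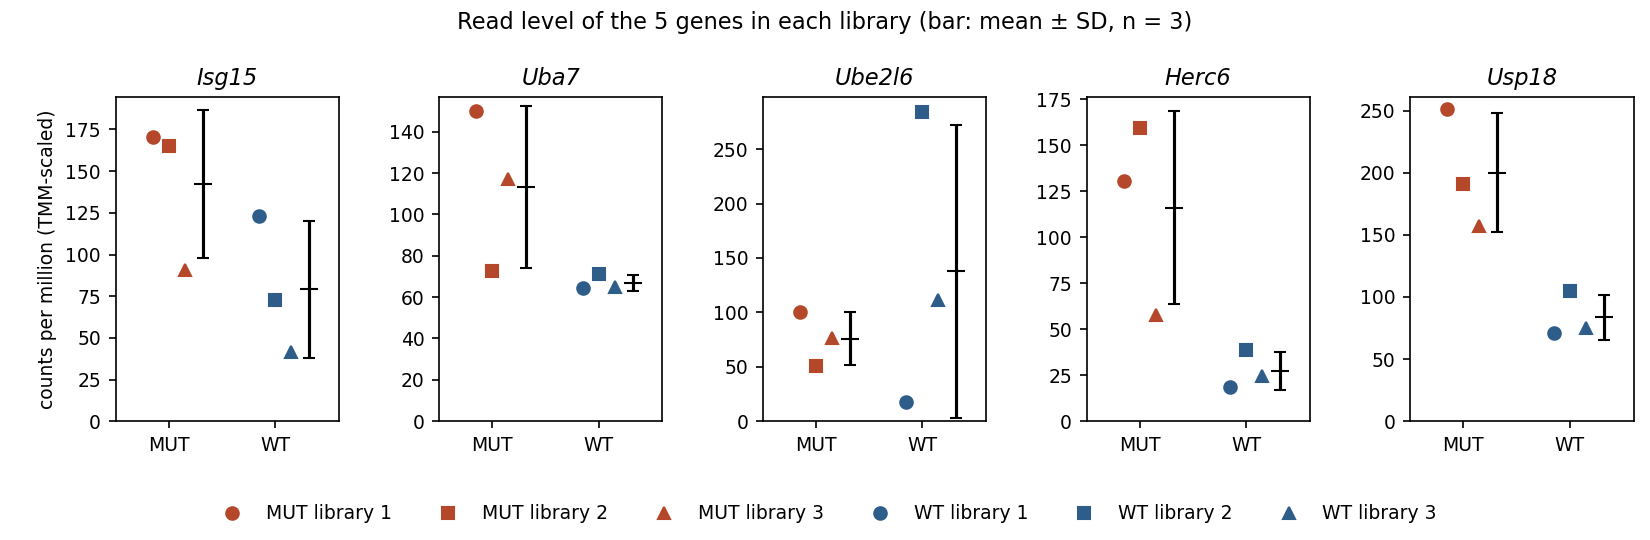
CPM (vertical axis, linear) of each of the 5 genes in the 3 MUT and 3 WT libraries; each point is a library, its shape gives the replicate number, and the bar is the mean ± SD. For Uba7, Herc6 and Usp18 all MUT points lie above all WT points, Isg15 overlaps at WT library 1 (123 CPM), and Ube2l6 runs from 17.9 to 284 CPM within WT.

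**Figure D2:**
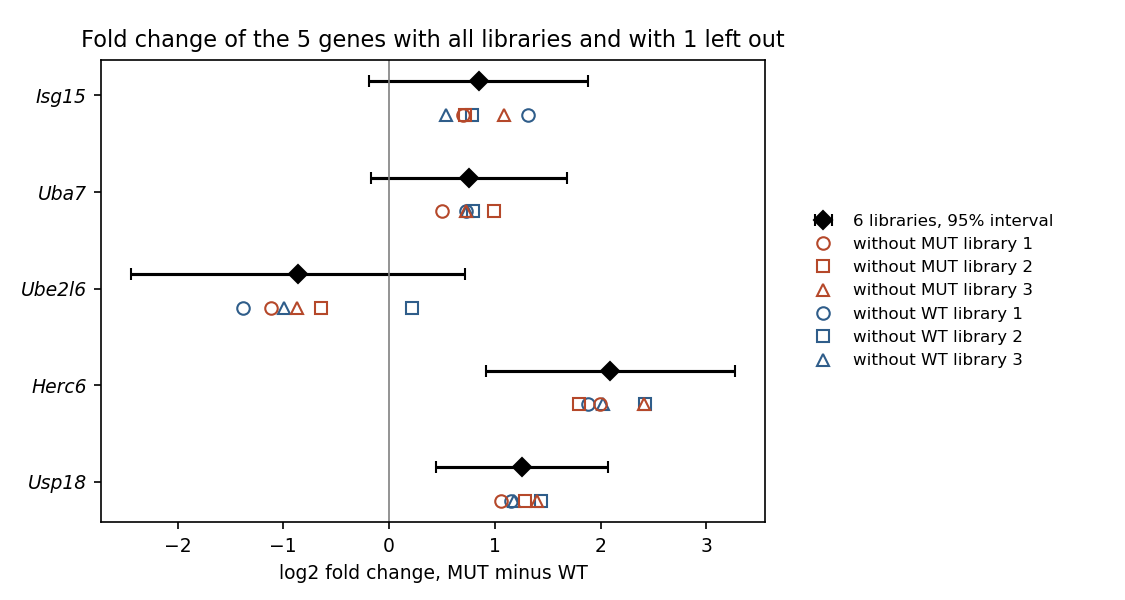
Log2 fold change, MUT minus WT (horizontal axis), of the 5 genes from edgeR; diamonds and bars are the value and 95% interval from 6 libraries, open symbols the value with the named library left out. Herc6 and Usp18 stay between 1.06 and 2.42 in every such fit, and Ube2l6 crosses 0 without WT library 2.

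No library was highest for every gene. MUT library 1 led for Isg15, Uba7 and Usp18, MUT library 2 for Herc6 and WT library 2 for Ube2l6. WT library 1 was the lowest of the 6 for Uba7, Ube2l6, Herc6 and Usp18, yet it held the highest Isg15 level among the WT libraries. Counts of other cell types differed between libraries too. Ptprc, the pan-leukocyte marker, measured 37.5, 384 and 26.02 CPM in MUT libraries 1, 2 and 3, and 24.3, 104 and 60.5 CPM in the WT libraries. MUT library 2 therefore held the most Ptprc, and with it left out the log2 fold changes were 1.79 for Herc6, 1.28 for Usp18, 0.99 for Uba7 and 0.72 for Isg15. The 10 thymocyte markers summed to 118 to 727 CPM in MUT and 197 to 517 CPM in WT, and the 10 markers of dendritic cells and macrophages to 539.6 to 1083 CPM in MUT and 621 to 1112 CPM in WT. Lyz2 gave most of each of the latter sums, 384 to 636 CPM in MUT and 387 to 722 CPM in WT. Of the 10 markers of dendritic cells and macrophages, 2 had a log2 fold change above 0, and the median was -0.46. The 3 plasmacytoid dendritic cell markers summed to 46.9 to 292 CPM in MUT and 171 to 235 CPM in WT. Of these 3, 0 had a log2 fold change above 0, and the median was -1.79. Klk1 gave most of each sum, 43.7 to 289.8 CPM in MUT and 156 to 232 CPM in WT, with Siglech at 0 to 2.64 CPM in MUT and 1.36 to 13.2 CPM in WT. The 5 B cell markers summed to 20.6 to 80.1 CPM in MUT and 24.1 to 48.99 CPM in WT. The ranges also overlapped for 6 cortical epithelial markers (381 to 660.4 CPM in MUT, 383 to 558 CPM in WT), 5 fibroblast markers (75.1 to 136 CPM in MUT, 96.3 to 127 CPM in WT) and 5 endothelial markers (33.4 to 62.3 CPM in MUT, 29.3 to 92.4 CPM in WT). Ccl25 gave most of each cortical sum, 269 to 503 CPM in MUT and 201 to 403 CPM in WT. Psmb11 of the same list measured 4.84 to 30.2 CPM in MUT and 4.71 to 20.4 CPM in WT. No listed marker was at 0 in all 6 libraries. The part of these cells in the member values was not tested.

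Levels of different genes were compared per length, as CPM divided by the kilobases of merged exons (RPKM). Isg15 was the most abundant at 188 ± 59.0 RPKM in MUT and 105 ± 54.4 RPKM in WT, above 99.3% of tested genes in MUT and 98.3% in WT. In MUT, Usp18 followed at 71.6 ± 17.2 RPKM, then Ube2l6 at 38.01 ± 12.3, Uba7 at 16.9 ± 5.83 and Herc6 at 12.5 ± 5.64 RPKM. In WT, Ube2l6 was second at 68.99 ± 67.5 RPKM, then Usp18 at 29.97 ± 6.56, Uba7 at 10.003 ± 0.56 and Herc6 at 2.93 ± 1.1002 RPKM. In MUT each library kept the order Isg15, Usp18, Ube2l6, with Uba7 and Herc6 below, and the last pair changed places in MUT library 2. In WT, Ube2l6 came before Isg15 in libraries 2 and 3 and after Uba7 in library 1, so its neighbours in that order did not differ from it beyond the spread. Herc6 was the least abundant member in each WT library. It stood above 79.0% of tested genes in MUT and above 42.3% in WT, the widest gap between genotypes of the 5. With the longest transcript in place of merged exons, Usp18 (113 ± 27.0 RPKM in MUT, 47.2 ± 10.3 in WT) passed Ube2l6 (48.6 ± 15.7 in MUT, 88.3 ± 86.4 in WT) in the mean of the 6 libraries.

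**Figure D3:**
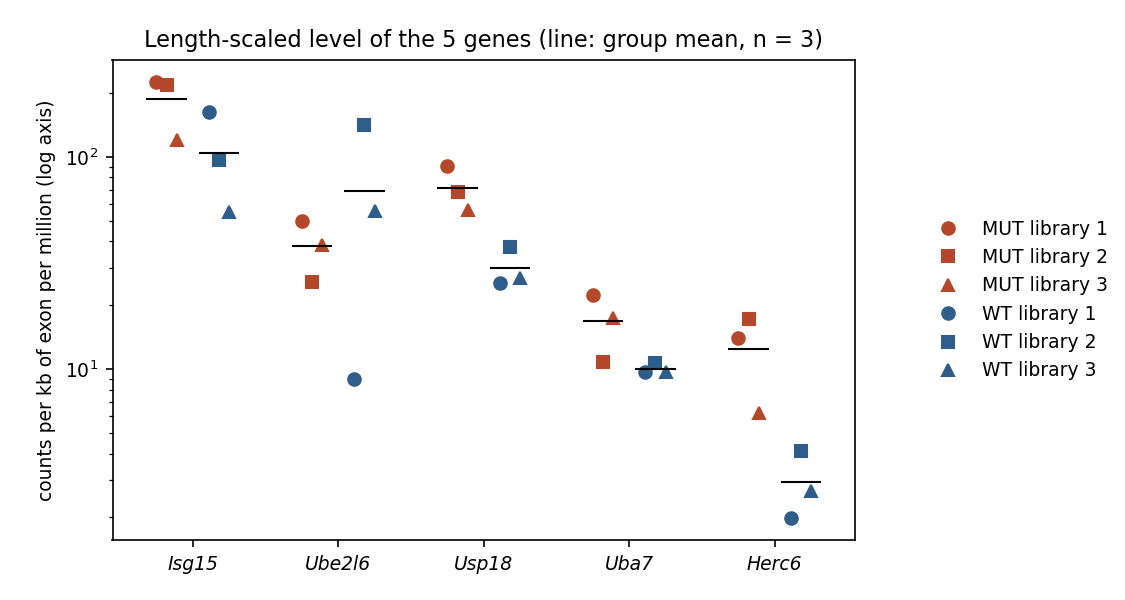
Length-scaled level (RPKM, log vertical axis) of the 5 genes in each library, MUT left of WT within each gene; genes run from the highest to the lowest mean over 6 libraries and lines are group means. Isg15 lies highest at means of 188 RPKM in MUT and 105 RPKM in WT, Herc6 lowest at 12.5 RPKM in MUT and 2.93 RPKM in WT, and WT points of Ube2l6 span the widest range.

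The ratio of each enzyme to Isg15 within a library needs no scaling between libraries, and asks whether the machinery kept its proportions. Ratios are of counts per kilobase, with 0.5 added to each count, and each of the 4 was given an exact permutation test (two-sided, 20 assignments of the libraries), which cannot go below 0.1. Herc6 stood at 0.0623, 0.0785 and 0.0517 of the Isg15 level in MUT libraries 1, 2 and 3. In WT libraries 1, 2 and 3 it stood at 0.0122, 0.0429 and 0.0486. The genotypes did not overlap, the log2 difference was 1.105, and the exact p was 0.1 (0.4 adjusted over the 4 ratios). MUT library 3 and WT library 3 were close, and without WT library 1 the difference was 0.47. Usp18 stood at 0.40, 0.31 and 0.47 of the Isg15 level in MUT and at 0.16, 0.39 and 0.49 in WT, with a log2 difference of 0.32 (exact p = 0.8) that was -0.17 without WT library 1. Uba7 stood at 0.099, 0.049 and 0.15 in MUT and at 0.059, 0.11 and 0.18 in WT (log2 difference -0.23, exact p = 0.7, but 0.19 without MUT library 2 and 0.14 without WT library 3). Ube2l6 stood at 0.22, 0.12 and 0.32 in MUT and at 0.055, 1.47 and 1.02 in WT (log2 difference -1.11, exact p = 0.5, but -2.60 without WT library 1, -0.23 without WT library 2 and -0.50 without WT library 3). It exceeded Isg15 in WT libraries 2 and 3 alone.

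**Figure D4:**
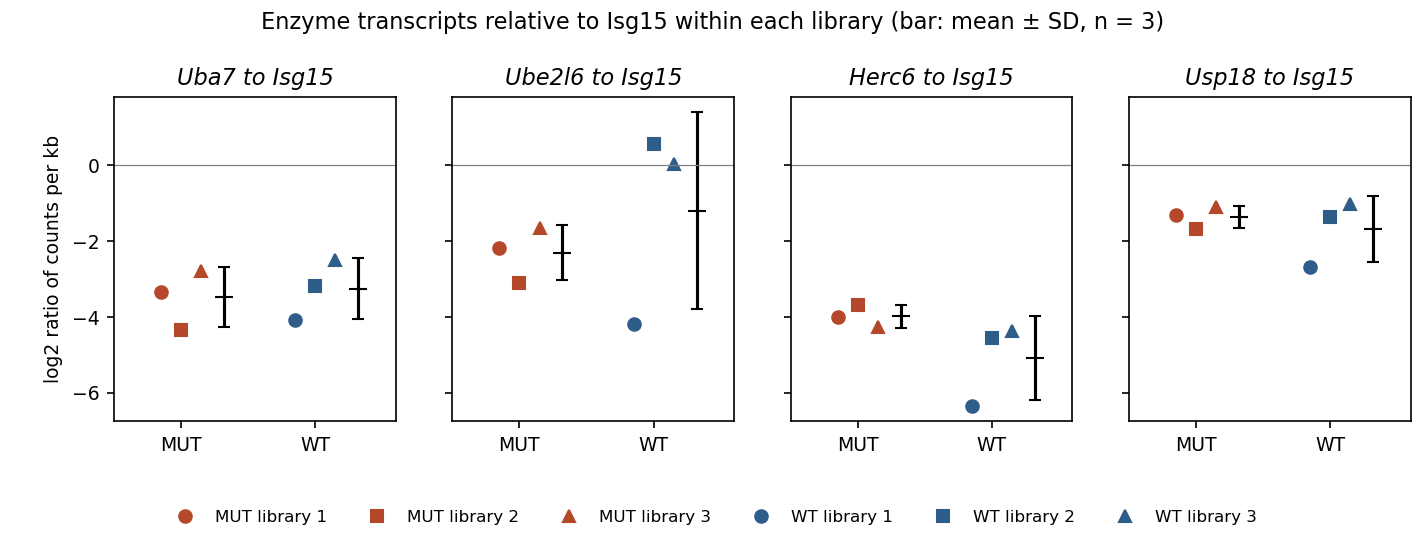
Log2 ratio of each enzyme's counts per kilobase to those of Isg15 (vertical axis) in the 3 MUT and 3 WT libraries, with the mean ± SD. Only Herc6 to Isg15 separates the genotypes, means -3.98 in MUT and -5.09 in WT, and WT library 1 is the lowest point of the Herc6, Ube2l6 and Usp18 panels.

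Relatives of the enzymes were then read from 8 lists, 63 genes in all, of which 62 were tested. None passed edgeR's test in either direction, 24 had a value above 0 and the median log2 fold change was -0.10. An unadjusted p under 0.05 was found for 4 of them (2 higher, 2 lower in MUT), against 3.48% of all genes tested. Among 6 E3 genes, the HERC family and the ligases Trim25 and Arih1 that have been reported to conjugate ISG15, 3 had a value above 0 (median -0.01). Herc2 measured 202, 161 and 224 CPM in MUT and 235, 236 and 246 CPM in WT, the reverse order to Herc6. Trim25 measured 213 ± 44.2 CPM in MUT and 157 ± 17.2 CPM in WT (log2 fold change 0.44, SE 0.34). Herc3 had a value of 1.13 (SE 1.06), which was 0.60 without WT library 1 and 1.79 without WT library 3.

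Of 8 genes for other E1 enzymes 4 had a value above 0 (median -0.03). Uba1, the main ubiquitin E1 and a relative of Uba7, measured 427 ± 63.4 CPM in MUT and 457 ± 59.6 CPM in WT (log2 fold change -0.10, SE 0.29). Those with the smallest p were the autophagy E1 gene Atg7 (-1.41, SE 0.71, and -2.23 without MUT library 3), lower in all MUT libraries than in all WT libraries, and Uba3 of the NEDD8 pathway (0.64, SE 0.51). Uba3 was at 0.22 without MUT library 2 and 0.37 without WT library 2. Of 11 E2 genes 2 had a value above 0 (median -0.48). Ube2l3, the closest relative of Ube2l6, measured 48.8 ± 11.6 CPM in MUT and 49.4 ± 11.2 CPM in WT. Ube2e2 had -1.87 (SE 0.81), resting on 127 CPM in WT library 1, without which it was -0.64.

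Of 13 tested genes for ubiquitin and other ubiquitin-like modifiers 3 had a value above 0 (median -0.10). Ubd, which encodes the tandem ubiquitin-like modifier FAT10, measured 937 ± 258 CPM in MUT and 1005 ± 398 CPM in WT (log2 fold change -0.10, SE 0.34). The autophagy modifier gene Atg12 had -1.16 (SE 0.68), and -0.45 without WT library 1. Sumo2 did not pass the count filter. Of 5 other proteases reported to act on ISG15, 2 had a value above 0 (median -0.63). Usp16 measured 103, 127 and 225 CPM in MUT and 422, 247 and 269 CPM in WT, without overlap and opposite in order to Usp18, with a log2 fold change of -1.04 (SE 0.39). Usp2 had -1.65 (SE 0.96), and -0.40 without WT library 3.

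Of 7 receptor, kinase and ISGF3 genes, which carry the interferon signal to this machinery, 3 had a value above 0 (median -0.28). Tyk2, a receptor-bound kinase gene, had a log2 fold change of 0.63 (SE 0.54, 0.31 without MUT library 1), Ifnar2, to which USP18 binds, -0.31 (SE 0.68), and Irf9 0.21 (SE 0.45). Of 12 genes for reported ISG15 substrates 7 had a value above 0 (median 0.28). Ifit1, an antiviral RNA-binding protein gene, measured 401, 321 and 218 CPM in MUT and 132, 91.9 and 111 CPM in WT (1.49, SE 0.36). Eif2ak2, the gene for the RNA-activated kinase PKR, measured 88.3, 94.6 and 63.6 CPM in MUT and 30.6, 36.2 and 42.5 CPM in WT (1.17, SE 0.47). Neither overlapped between genotypes. Genes of the integrin LFA-1, a receptor for free ISG15 on leukocytes, had 0.15 (Itgal, SE 0.54) and -0.64 (Itgb2, SE 0.81); Itgal was at 255 CPM in MUT library 2, which also led for Ptprc, and without that library the values were -0.78 for Itgal and -1.70 for Itgb2. Itgb2 was at -0.16 without MUT library 3 and -0.27 without WT library 1.

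**Figure D5:**
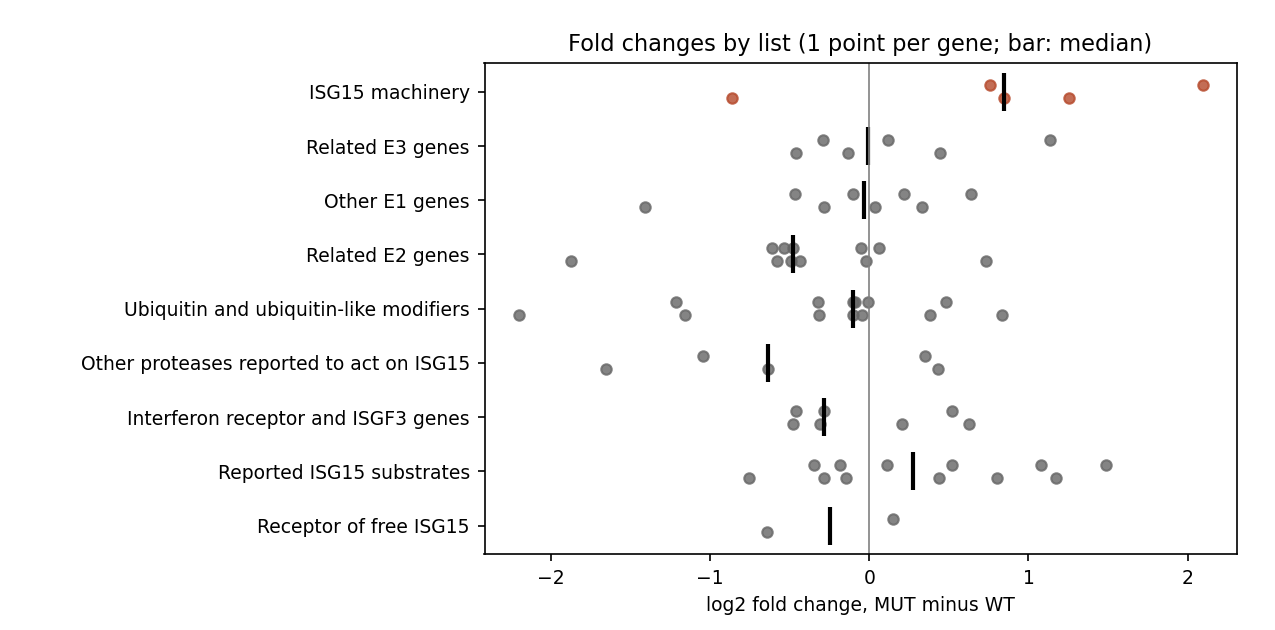
Log2 fold change, MUT minus WT (horizontal axis), of the 5 ISG15 machinery genes and of the tested genes in 8 lists of relatives, 1 point per gene with the list median as a bar. The machinery has 4 of 5 points above 0 (median 0.85), and the medians of the other lists lie between -0.63 and 0.28.

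Likeness of pattern was measured as the root mean square difference of log2 CPM over the 6 libraries, each gene centred on its own mean, among 12732 genes with a mean of at least 5 CPM. The genes nearest to the mean profile of the members were Gpr108 (0.12), Dda1 (0.15), Krt16 (0.15), Tspyl1 (0.16) and Ints10 (0.16). The nearest to a single member were Bcl11b for Isg15 (0.16), Parg for Uba7 (0.12), Rnf187 for Ube2l6 (0.26), Adgrb1 for Herc6 (0.16) and Atp7a for Usp18 (0.14). The distances between members were larger, but each nearest distance is the smallest over all these genes, so it sets no standard for the members. Usp18 lay at 0.42 from Uba7, 0.54 from Herc6 and 0.55 from Isg15, while Ube2l6 lay at 1.21 to 1.65 from each of the other members. Among all these genes the rank of 1 member in likeness to another ran from 59th, Usp18 to Herc6, down to 9748th, Ube2l6 to Isg15. In the other direction Herc6 ranked 544th in likeness to Usp18. These distances rest on 6 libraries and are given as a description.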

How the data were processed

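What the authors deposited is 1 table of raw counts, with Ensembl gene IDs in rows, a column for each library and no normalization. Per the labels' protocols, column-purified total RNA went through Nugen Ovation cDNA synthesis and Nextera XT library preparation; no molecular identifiers are described, so amplified reads are not independent molecules. The build GRCm38, STAR 2.4.2a and DESeq2 1.26.0 are named, per the submitters' processing notes, with no role. Not given in the sources used here are the counting program, its annotation and whether strand was used. Of 43432 IDs 42462 matched a symbol; coordinates and lengths are GENCODE M21 on GRCm38, and near copies were sought with BLAST 2.17.0 (at least 300 bases).

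Computed here: edgeR 4.0.16 in R 4.3.3 (TMM, filterByExpr, robust quasi-likelihood F-test, Benjamini-Hochberg at 0.05, genotype only) on 3 MUT and 3 WT libraries. A run on simulated counts had to return the median of large fold changes alone. The share of changed genes that it called is not given here. Intervals use the test's F and degrees of freedom. Profiles use log2 CPM with a prior count of 2. Alternatives were DESeq2 1.42.0, limma-voom (limma 3.58.1), other factors and filters, a replicate block, an adjusted p of 0.1 and each library left out. Members and lists were chosen with earlier results of these data known. Genes named are the 5 members, Copa, the 2 smallest p per list and the nearest profiles. Herc2, Uba1, Ube2l3, Ubd, Ifnar2, Irf9 and Pcna were added after their values were seen. Some genes that the rule names are not reported here.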

Additional observations from a re-analysis of the deposited data

How the results depend on the processing

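The count of 0 genes called became 116 with DESeq2 (78 higher, 38 lower), 73 without a filter on low counts (31 higher, 42 lower), 1 with the replicate block in edgeR and 308 with the replicate block in DESeq2 (185 higher, 123 lower); the cause was not tested, and it was 0 with limma-voom, with other scaling, with the stricter filter, at an adjusted p of 0.1 and with any 1 library left out. No listed relative was called under any setting run. Of the members, Herc6 alone was called under any setting, by DESeq2 with the replicate block (log2 fold change 2.02, adjusted p 0.020), where 1.8% of genes with an adjusted p were called; its adjusted p was 0.074 in DESeq2 without the block and 0.054 in edgeR without a filter. Deviations from the genotype means correlated at 0.059 to 0.13 between libraries with the same number and at -0.093 to 0.0021 otherwise, so each library correlated best with its own number, and source names with the same number end alike, for a reason not stated in the labels. As the labels name no pairs, the numbers were not taken as pairs in the main test or in the exact test of the ratios. These correlations do not show that the libraries are unpaired, and if they are paired, those tests ignored it. The share of counts from mitochondrially encoded genes ran in the same order over the numbers in both genotypes. It was 16.0, 21.3 and 9.14% in MUT libraries 1, 2 and 3, and 17.1, 18.9 and 11.1% in the WT libraries. With the replicate block Isg15, higher in MUT within each number, was 0.93 in edgeR (adjusted p 0.999964) and 0.92 in DESeq2 (adjusted p 0.41). Left-out libraries moved Ube2l6 between -1.38 and 0.21, Copa between -0.42 and 0.14, Itgal between -0.78 and 0.50, Rnf187 between -0.95 and 0.24, the log2 ratio difference to Isg15 of Uba7 between -0.65 and 0.19, of Ube2l6 between -2.60 and -0.23 and of Usp18 between -0.17 and 0.65. Itgal was -0.13 and -0.15 with the replicate block in edgeR and DESeq2, and -0.15 with limma-voom. With the longest transcript, and with WT library 2 or 3 left out, 9 of the 10 member pairs kept the order of levels, and with any other library left out 10 did. With sign flips within numbers as the block for the ratios, the smallest possible p is 0.25. Over the 17172 genes the median log2 fold change stayed within 0.1 of its main value in every setting; over all genes each fit used it was 0.16 without the filter, 0.15 in DESeq2 and 0.20 in DESeq2 with the block, against -0.01. The coefficient of biological variation of 1.009 and the median SE of 1.03 limit what 3 libraries a genotype can show.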
